A study of Mus musculus with 30 samples.

Results

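What sets a sensory ganglion apart from the skin and deeper tissue that it innervates was measured in the 12 vehicle libraries of a mouse RNA sequencing study. The libraries were chosen by the mark Veh in their titles and make up 12 of the 30 libraries of the study. They came from dorsal root ganglia (DRG) and from hind paw, with 6 libraries of each tissue, 3 from females and 3 from males. All mice were C57BL/6J, an inbred laboratory strain, aged 10 to 12 weeks, and the labels name no altered gene, transgene or clone. Vehicle was phosphate-buffered saline injected into the paw, so the control tissue was itself injected. The series text counts 18 males and 12 females, whereas the sample labels give 18 female and 12 male libraries, and the sample labels were used. In the 12 vehicle libraries Xist, the RNA of the inactive X chromosome, stood at 1642 to 3441 CPM in those labelled female and at 0.895 to 6.32 in those labelled male, and 4 Y-linked genes summed to 0 to 0.448 and to 200.9 to 385.7 CPM. The protocol names 2 schedules, 1 injection or an injection each day for 12 days, and does not assign libraries to them. The labels do not state that replicates were separate animals, and the p-values therefore measure the spread between these samples, which may be technical. The other 18 libraries came from mice given prolactin (PRL), and 12 of them, prepared by the same removal of ribosomal RNA, gave the same tissue contrast with no library shared.

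A DRG holds the cell bodies of the sensory neurons, whose single process splits into a branch that enters the spinal cord and a branch that ends in skin, muscle or joint. The nucleus, and with it all transcription of the neuron, lies in the ganglion, while the channels and receptors made from its mRNA work at endings in the paw. Around the neurons lie satellite glia and myelinating Schwann cells. The paw carries a thick epidermis, in which keratinocytes divide in the basal layer, stop dividing, and harden into the cornified layer, and beneath it lie dermis, sweat glands, fat, vessels, tendon, bone and small muscles.

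Levels are given as CPM, read counts relative to the TMM-scaled size of each library, and differences as log2 of DRG over paw with the standard error (SE) of the edgeR fit, so that positive values mean higher in DRG. CPM grows with the length of a transcript, so levels are compared within a gene and not between genes. A gene was called when its adjusted p from edgeR's quasi-likelihood test (Benjamini-Hochberg over all genes tested) was under 0.05. In whole tissue, fewer cells of a type and less RNA per cell cannot be told apart.

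Reads assigned to genes numbered 8988497 to 13327072 in the DRG libraries and 6866545 to 13470783 in the paw libraries. Genes took 26.4% to 28.1% of the reads listed per DRG file and 13.6% to 25.4% per paw file. The lowest paw value belonged to the second male paw library, which also had 55.5% multimapped reads against 42.1% to 43.2% in the other 5. The 10 most read genes took 8.35% to 9.22% of gene reads in DRG and 13.1% to 19.4% in paw. Log CPM correlated at 0.9754 to 0.993 between DRG libraries, at 0.964 to 0.988 between paw libraries and at 0.528 to 0.561 across tissues. The correlations are over genes, which are not independent replicates.

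Nearly all expressed genes differed between the tissues. Of 15598 genes tested, 13357 (85.6%) were called, 6651 of them higher in DRG (42.6%) and 6706 higher in paw (43%). A test for a difference larger than 2-fold left 6888 genes (44.2%), with 3657 higher in DRG (23.4%) and 3231 higher in paw (20.7%). In 11238 genes (72%) the 6 DRG libraries and the 6 paw libraries did not overlap, with DRG above paw in 5750 (36.9%) and paw above DRG in 5488 (35.2%). The median log2 difference over all genes tested was -0.01, and 2926 called genes differed by more than 3 on the log2 scale. Levels are relative to the scaled library size, so the median near 0 and the even split of directions depend on the scaling. They do not show equal amounts of RNA in the tissues. The shares of called genes are the background for every list below, since a list in which most genes were called is the ordinary case here.

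The tissue labels held against their defining markers. Scn10a, a sodium channel of nociceptors, the neurons that report damage, stood at 956 to 1252 CPM in DRG with a median of 1116, and at 0.0746 to 1.76 CPM in paw with a median of 1.08. Krt5, a keratin of basal keratinocytes, stood at 0.486 to 3.62 CPM in DRG (median 1.19) and at 1697 to 2182 CPM in paw (median 2049). Neither gene came near overlapping. The differences were 10.28 ± 0.39 for Scn10a and -10.37 ± 0.32 for Krt5 on the log2 scale.

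**Figure D1:**
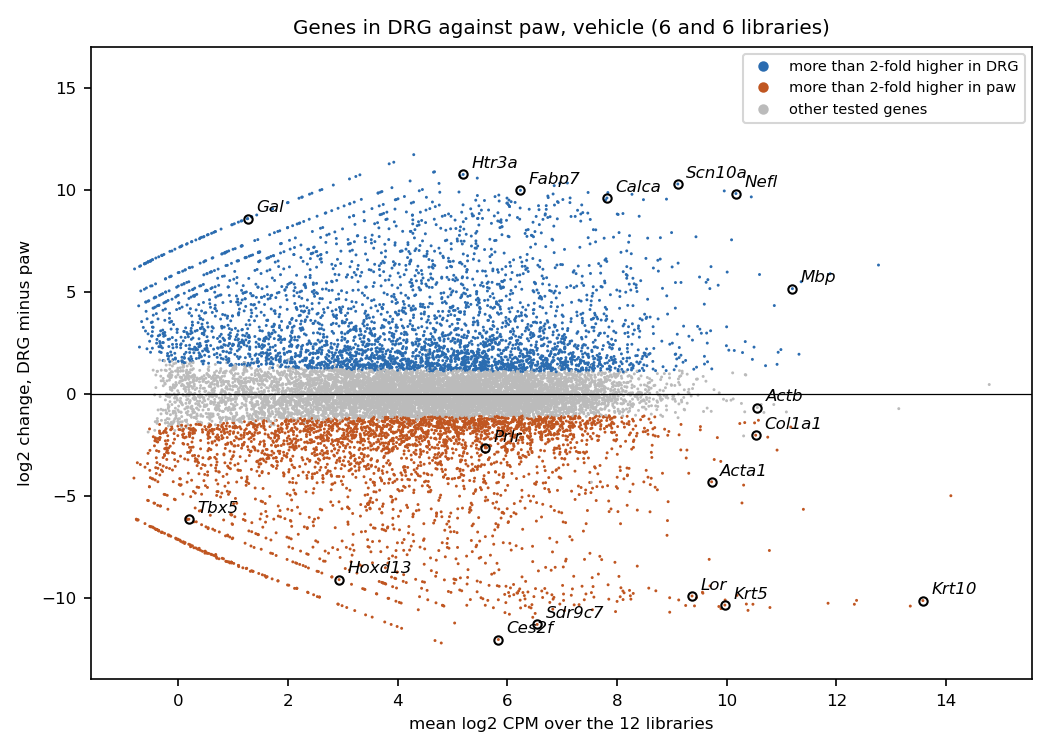
Log2 difference of DRG over paw (vertical axis) against mean level (horizontal axis, mean log2 CPM) for the 15598 genes tested, with genes more than 2-fold apart coloured by the tissue in which they were higher, other genes in grey and some named genes circled. The outermost points have few or no reads in a tissue and depend on the small prior count of the fit. The cloud spreads to both sides about a median of -0.01.

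Among well expressed genes (mean log2 CPM from 5 upward) whose libraries did not overlap, the largest differences were neuronal on one side and epidermal on the other. Passing over predicted genes, the 12 highest in DRG over paw included sodium channels (Scn10a, Scn1a), the neurofilaments Nefh and Nefl, the synaptic vesicle proteins Rab3c and Rph3a, the transmitter receptor Htr3a, the tubulin regulator Stmn3, Gpr158, Hecw1 and the glial gene Fabp7. Htr3a, a serotonin-gated channel, had 4775 reads in DRG and 2 in paw, a ratio of 2391 with a 95% counting interval of 662 to 19750. Gpr158, an orphan receptor, ran from 187.6 through 232.7 to 248.6 CPM in DRG and from 0 through 0.196 to 0.638 in paw. Its difference of 9.79 ± 0.20 was 9.93 in the prolactin libraries.

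The 12 genes highest in paw over DRG were of the epidermis or of uncertain role: Ces2f, Sdr9c7, Fam83c, Lce1l, Sdr16c6, Lce1b, Lce1f, Trim29, Lypd3, Cpa4, Dmkn and Ly6g6c. Sdr9c7, an enzyme of the skin's lipid barrier, ran from 168.4 through 181.6 to 213.2 CPM in paw, while DRG had 4 reads in all against 12290, and its difference was -11.32 ± 0.18. Trim29 ran from 908.2 through 973.7 to 1105 CPM in paw and from 0.091 through 0.546 to 1.14 in DRG, a difference of -10.72 ± 0.26. Ces2f had 1 read in DRG and 7563 in paw (ratio 7552, 95% counting interval 1355 to 298300). Counting intervals such as these cover counting error only, since reads without molecular identifiers are not independent molecules.

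Extreme ratios were more common on the paw side. Of 1562 called genes at 100 CPM or more in DRG, 44 differed by more than 9 on the log2 scale in favour of DRG. Of 1478 called genes at 100 CPM or more in paw, 101 differed by more than 9 in favour of paw.

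Nociceptor genes were almost all far higher in the ganglion. Of 26 tested receptors and channels of this list, 25 were called higher in DRG, all 25 by more than 2-fold and without overlap, 0 were called higher in paw, and the median difference was 8.33 (7.81 with genes of no paw read set at their bound). The summed level of the list was 3858 to 5082 CPM in DRG and 108 to 127 in paw, and in paw most of that sum was Osmr. The background for higher in DRG is 42.6%.

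The heat and capsaicin channel Trpv1 ran from 61.2 through 73.0 to 88.0 CPM in DRG and from 0 through 0.239 to 0.479 in paw, a difference of 8.43 ± 0.22 (adjusted p = 1.33e-13). Trpa1, the channel for irritants, averaged 38.5 CPM in DRG and 0.0670 in paw, and the cold channel Trpm8 averaged 42.0 and 0.0842. The sodium channels Scn9a and Scn11a averaged 714 and 618 CPM in DRG and 1.05 and 0.744 in paw, with differences of 9.51 ± 0.28 and 9.78 ± 0.26. In all 5 channels the tissues were apart in every library.

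Receptors that mark classes of itch and touch fibres behaved alike. Mrgprd, a receptor of fibres that end in the outer epidermis, ran from 125.0 through 143.0 to 158.0 CPM in DRG and from 0 through 0.172 to 0.798 in paw, with a difference of 9.38 ± 0.25. Mrgprb5 and Mrgprb4 had no read in any paw library and were at least 404-fold and at least 168-fold higher in DRG, bounds that set paw at 3 counts over its 6 libraries. Kcnk18, a background potassium channel, was at least 301-fold higher. Mrgpra3, an itch receptor, had 529 reads in DRG and 1 in paw, and the opioid receptor Oprm1 had 1727 and 2.

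Receptor subunits for neuropeptide and cytokine signals of itch split. Il31ra, the ligand-binding part of the receptor for the itch cytokine Il31, ran from 22.2 through 30.8 to 33.5 CPM in DRG and from 0.522 through 1.82 to 4.31 in paw, a difference of 3.95 ± 0.29. Its partner Osmr, which is shared with oncostatin M signalling, was the member with no call: 68.1 to 78.6 CPM in DRG with a median of 71.8, and 63.5 to 79.5 in paw with a median of 69.1. The Osmr difference was 0.03 ± 0.07 (adjusted p = 0.71), and the libraries overlapped throughout.

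Neurons of touch and body position were also mostly on the DRG side. Of 18 tested genes, 16 were called higher in DRG and 2 higher in paw, with a median of 4.68 and no overlap in 17. Fam38b (Piezo2), the main mechanical channel of touch neurons, ran from 752.5 through 849.9 to 946.6 CPM in DRG and from 11.3 through 13.2 to 14.7 in paw (6.01 ± 0.09). Ntrk3, the receptor of proprioceptors for neurotrophin 3, ran from 169.6 to 214.3 CPM against 4.31 to 10.5 (4.78 ± 0.13). The heavy neurofilament Nefh ran from 1531 through 2059 to 2190 CPM against 0.248 through 1.20 to 5.11 (9.94 ± 0.50).

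The exceptions were Pvalb and Etv4. Pvalb, a calcium buffer of proprioceptors that fast muscle fibres also contain, averaged 66.3 ± 34.9 CPM in DRG and 267 ± 150 in paw (SD, n = 6 each), and its libraries overlapped. Its difference was -2.04 ± 0.41, and the skeletal muscle list moved in the same direction (below). Etv4, a transcription factor, averaged 4.87 and 9.75 CPM (-1.02 ± 0.13).

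The transcription factors that specify sensory neurons were mostly higher in the ganglion. Of 19 tested genes in the list, 15 were called higher in DRG, 2 higher in paw and 2 were not called, with a median of 3.26. Prdm12, a regulator required for pain neurons, ran from 94.4 through 119.6 to 131.6 CPM in DRG and from 0 through 0.161 to 0.358 in paw (9.45 ± 0.24). Isl1, a factor common to sensory neurons, ran from 55.6 through 65.9 to 77.0 CPM against 0 through 0.251 to 0.537 (8.10 ± 0.25). Pou4f1, its partner, ran from 125.1 through 150.5 to 163.7 CPM against 2.16 through 2.65 to 2.96 (5.82 ± 0.09).

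Some subtype factors were shared with the paw. Runx1 ran from 134.3 through 149.3 to 173.4 CPM in DRG and from 76.6 through 107.3 to 178.0 in paw and was not called (0.37 ± 0.18, adjusted p = 0.070). It was called without the third female paw library (0.58) and without the second male paw library (0.44). The call also appeared by DESeq2 (0.38), with scaling by total gene reads (0.41), with a replicate block (0.43) and with a muscle covariate (0.41). Runx3 averaged 9.68 and 8.57 CPM (0.18 ± 0.09, adjusted p = 0.081), and was called with scaling by total gene reads (0.21). Maf and Mafa, factors of touch neurons, were called higher in paw at -0.30 ± 0.10 and -0.62 ± 0.21, but not in females alone (-0.17 with adjusted p = 0.259, and -0.17 with adjusted p = 0.509). By contrast Tlx3 had 1803 reads in DRG and 3 in paw, and Prrxl1 had 1182 and 1.

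Neuropeptides, the signals that sensory endings release, were mostly far higher in the ganglion. Of 19 tested genes, 15 were called higher in DRG, 3 higher in paw and 1 was not called, with a median of 4.92. Calca, which encodes the vasodilator CGRP, ran from 351.3 through 441.2 to 539.2 CPM in DRG and from 0.224 through 0.488 to 1.25 in paw (9.60 ± 0.21). Tac1, the gene of substance P, ran from 81.1 through 106.3 to 142.5 CPM against 0 through 0.116 to 0.479 (9.66 ± 0.23). Adcyap1, the gene of PACAP, had 3517 reads in DRG and 2 in paw.

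Scg2, a granin of the vesicles that store peptides, ran from 220.8 through 248.3 to 308.0 CPM in DRG and from 0 through 0.403 to 0.638 in paw (9.52 ± 0.22). Sst, the gene of somatostatin, was low in both tissues, with 131 reads in DRG and 3 in paw. Paw was higher for 3 peptides. Nmu had 3 reads in DRG and 308 in paw, Npff averaged 2.36 and 4.36 CPM (-0.88 ± 0.13), and Cck averaged 0.0999 and 1.35 CPM (-3.75 ± 0.48, and -4.37 without the third male DRG library). Penk, an enkephalin gene, averaged 6.28 and 6.83 CPM and was not called (-0.14 ± 0.22, adjusted p = 0.55).

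The promoters of the peptide genes were read from RefSeq (GRCm38.p6), because the cyclic AMP response element was first described in the somatostatin promoter. Altogether 6 motifs were searched on both strands in the 250 bases before each start, and each was picked with the expression values known. The element TGACGTCA was present in 1.55% of all 32851 promoter windows, in 2.39% of windows of tested genes, in 2.16% of those of genes more than 2-fold higher in DRG and in 1.9% of those more than 2-fold higher in paw. In the peptide list 4 of 22 windows held it, those of Cartpt, Chgb, Scg2 and Sst. Those of Sst and Scg2 are shown as the 120 bases before the start, 5′ to 3′ on the minus strand, with the element in capitals. It begins 48 bases before the start in Sst (chr16:23890845-23890964) and 68 bases before it in Scg2 (chr1:79440027-79440146).
Sst: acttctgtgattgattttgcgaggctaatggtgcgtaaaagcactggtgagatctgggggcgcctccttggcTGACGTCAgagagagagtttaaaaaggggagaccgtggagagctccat
Scg2: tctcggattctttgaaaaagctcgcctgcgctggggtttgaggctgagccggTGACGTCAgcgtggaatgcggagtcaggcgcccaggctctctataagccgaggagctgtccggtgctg
A match of letters is a description and not a bound site.

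The machinery of transmitter release was higher in DRG throughout. All 25 tested genes of the list were called higher in DRG, each by more than 2-fold and without overlap, and the median difference was 6.56. Snap25, a protein of vesicle fusion, ran from 774.3 through 984.5 to 1047 CPM in DRG and from 0.522 through 1.21 to 2.87 in paw (9.54 ± 0.27). Syt1, its calcium sensor, ran from 176.0 through 212.2 to 247.3 CPM against 0 through 0.294 to 0.479 (9.69 ± 0.22). The smallest difference was that of Vamp2, which many cells use for secretion, at 402 and 136 CPM (1.56 ± 0.06).

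The transporters that load vesicles with transmitter were those for glutamate. Slc17a6 averaged 208 CPM in DRG and 0.365 in paw (9.22 ± 0.24, and 9.93 without the first female paw library). Slc17a7 averaged 131 and 0.315 CPM, and Slc17a8 averaged 13.2 and 0.309 CPM (5.51 ± 0.27). The inhibitory genes Gad1 and Slc32a1 did not reach the filter on low counts, with Gad1 at 0.662 CPM in DRG and Slc32a1 at 0 reads in both tissues.

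Axonal proteins and channels followed. Of 23 tested cytoskeletal and axonal genes, 21 were called higher in DRG and 2 higher in paw. Mtap1b, a microtubule protein of axons, ran from 10960 through 14150 to 15550 CPM in DRG and from 126.5 through 174.8 to 249.1 in paw (6.31 ± 0.14). The kinesins Kif5a, Kif5c and Kif1a differed by 7.69 ± 0.17, 7.90 ± 0.22 and 7.54 ± 0.16. Higher in paw were Mtap2, at 188 and 219 CPM (-0.22 ± 0.08), and Sprr1a, at 0.507 and 80.4 CPM (-7.20 ± 0.25). The call of Mtap2 was lost without the first female DRG library (-0.15), without the second female paw library (-0.17) and in females alone (-0.19). Sprr1a is known both as a gene of injured axons and as a precursor of the cornified envelope.

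Of 25 tested potassium and calcium channel genes, 23 were called higher in DRG, 1 higher in paw and 1 was not called, with a median of 5.33. Kcnb2 averaged 205 CPM in DRG and 0.520 in paw (8.76 ± 0.21), and Cacna1b, the calcium channel of presynaptic endings, averaged 183 and 0.521 (8.69 ± 0.27). Kcna1, a channel of myelinated axons, ran from 1337 through 1475 to 1567 CPM against 63.9 through 70.3 to 76.8 (4.39 ± 0.07). The paw gene was Cacna1s, the voltage sensor of skeletal muscle, at 8.81 and 177 CPM (-4.33 ± 0.53). Cacnb1, a subunit that muscle shares with neurons, was not called at 26.3 and 25.4 CPM.

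Myelin genes were higher in DRG almost throughout. All but 1 of 18 tested myelin genes were called higher in DRG, with a median of 5.16, and the exception, Fa2h, was not called. Mbp, myelin basic protein, ran from 3832 through 4594 to 5260 CPM in DRG and from 114.1 through 127.2 to 148.5 in paw, with no overlap. Pmp22 and Prx averaged 3552 and 1611 CPM in DRG and 178 and 45.5 in paw. The differences of these genes lay between 4.32 ± 0.11 (Pmp22) and 5.15 ± 0.10 (Mbp and Prx). Fa2h, which makes myelin lipids and also lipids of the epidermis, averaged 145 and 180 CPM (-0.31 ± 0.14, adjusted p = 0.051). It was called without the first or second female paw library (-0.37 and -0.35) or the second male paw library (-0.39). Fa2h was also called with upper quartile scaling (-0.36), with either other filter on low counts (-0.31), without the sex term (-0.31) and with a muscle covariate (-0.31).

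In the list of satellite glia and Schwann cells 16 of 19 tested genes were called higher in DRG, 2 higher in paw, and 1 was not called. Fabp7, a lipid carrier of satellite glia, ran from 123.4 through 148.2 to 175.8 CPM in DRG and from 0 through 0.0883 to 0.447 in paw. Its difference was 9.97 ± 0.21, and 10.80 without the first female paw library, in which its paw level was highest. Sox10, which Schwann cells of the paw nerves also express, differed by 3.51 ± 0.12. Gja1, a gap junction protein of glia and of keratinocytes, went the other way, at 35.8 to 57.1 CPM in DRG (median 40.0) and 619 to 827 in paw (median 779). Erbb3, the receptor by which Schwann cells read neuregulin, ran from 127.1 through 136.3 to 152.5 CPM in DRG and from 132.5 through 151.2 to 164.0 in paw. It was not called (-0.11 ± 0.06), though it was with upper quartile scaling (-0.16), without the first male DRG library (-0.13) and without the second male paw library (-0.15).

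**Figure D2:**
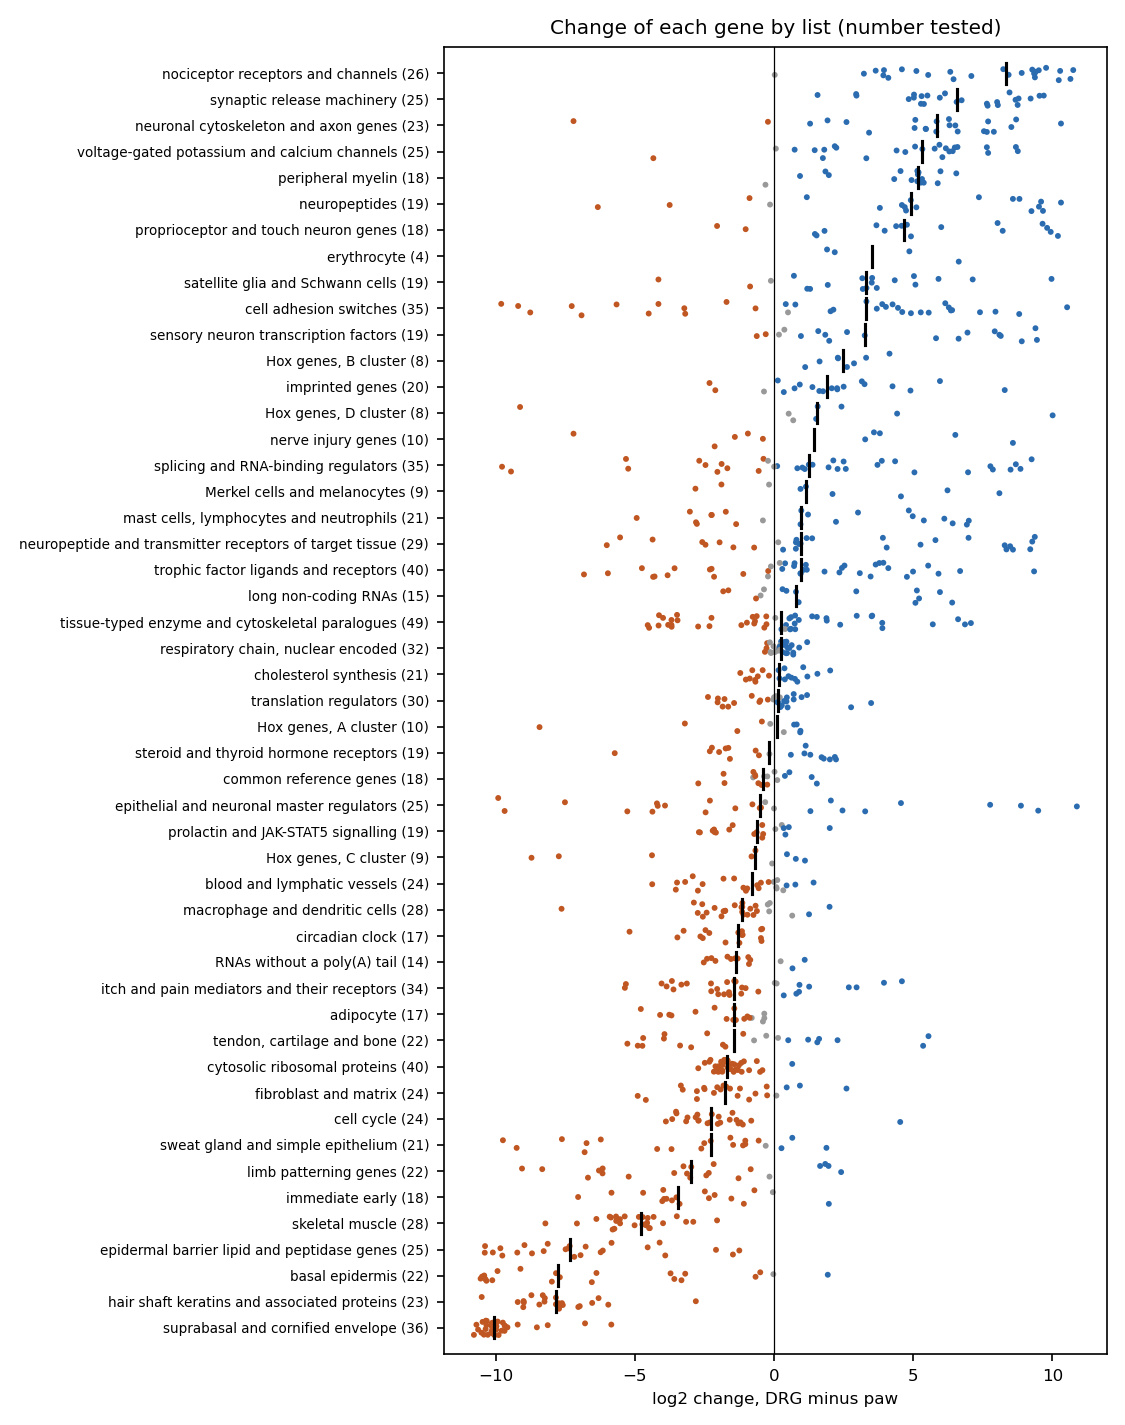
Log2 difference of DRG over paw for every tested member of each gene list, 1 row a list, with a point for each gene (grey where not called), a black line at the list's median, and the number tested beside its name. Neuronal and glial lists lie to the right and epidermal and muscle lists to the left, the synaptic list with all 25 members above 0 and the suprabasal list with all 36 below.

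Genes of the differentiating epidermis were the most uniform list of the paw. All 36 tested suprabasal and cornified envelope genes were called higher in paw, each by more than 2-fold and without overlap, and the median difference was -10.06. Krt10, the keratin of cells that have left the basal layer, ran from 18670 through 25230 to 28520 CPM in paw and from 12.7 through 18.98 to 40.6 in DRG (-10.15 ± 0.33). Lor, the gene of loricrin, the main protein of the cornified envelope, ran from 979.3 through 1361 to 1654 CPM against 0.910 through 1.30 to 1.97 (-9.93 ± 0.19). Ivl, the envelope precursor involucrin, had 1808 reads in paw and 1 in DRG. Lce and keratin genes are members of families of near copies. Multimapped reads were not counted for any gene, so such genes are under-counted.

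The level of these genes in DRG was a small share of that in paw. Over the 31 members at 100 CPM or more in paw, DRG held a median of 0.0892% of the paw level, with quartiles at 0.0772% and 0.114% and a range of 0.0512% to 1.41%. Single DRG libraries had medians from 0.0539% (the first female library) to 0.165% (the third male library). Nociceptor genes in paw, counted the same way over 9 members, had a median of 0.186% of their DRG level, with quartiles at 0.147% and 2.15% and a range of 0.0871% to 6.55%, and the medians of single paw libraries ran from 0.0828% to 0.627%. How such shares arose was not tested.

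Barrier lipid enzymes and peptidases were all on the paw side, 25 of 25 tested genes with a median of -7.34, against a background of 43% for higher in paw. Alox12b, a lipoxygenase of the barrier, averaged 0.419 CPM in DRG and 370 in paw (-9.76 ± 0.19). Spink5, which restrains skin peptidases, averaged 0.942 and 1219 CPM (-10.39 ± 0.26). Klf4, a factor of barrier formation, averaged 12.8 and 957 CPM (-6.23 ± 0.14). The smallest differences were those of lipid enzymes used in many tissues, Elovl6 (-1.25 ± 0.12, and 0.06 in the prolactin libraries) and Smpd1 (-1.48 ± 0.08).

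The basal layer was less uniform. Of 22 tested genes, 20 were called higher in paw, 1 higher in DRG and 1 was not called. Krt14, the partner of Krt5, ran from 1628 through 1924 to 2076 CPM in paw and from 0.364 through 1.04 to 3.21 in DRG (-10.54 ± 0.31). Itga6, the integrin of the basement membrane contact, ran from 226.8 through 264.5 to 303.1 CPM in DRG and from 243.2 through 272.1 to 297.6 in paw and was not called (-0.02 ± 0.07). Its partner Itgb4 averaged 260 and 366 CPM (-0.49 ± 0.08). Dst, a linker protein with neuronal and epithelial forms, was higher in DRG, at 3525 to 4452 CPM (median 4141) against 853.5 to 1329 (median 1019), a difference of 1.93 ± 0.11.

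Hair shaft genes were present in paw at levels that varied. All 23 tested hair shaft genes were called higher in paw, with a median of -7.83 (-6.30 with genes of no DRG read set at their bound), but the libraries were apart in 8 of them. Their summed level ran from 54.4 to 457 CPM over the paw libraries and from 0.364 to 2.0 over DRG. In paw the female libraries were at 154.8, 54.4 and 150.6 CPM, all below the male ones at 240.1, 457 and 412.5. A sex difference of this sum was not tested. Krt71, a keratin of the inner root sheath, ran from 0 through 81.5 to 228 CPM in paw, and the paw library at 0 lay among the DRG libraries. Krt31, a hair cortex keratin, ran from 0 through 2.72 to 8.46 CPM in paw with no read in DRG. Of 21 tested genes of sweat gland and simple epithelium, 17 were called higher in paw, 3 higher in DRG and 1 was not called, with a median of -2.27. Their summed level lay the other way, at 1230 to 1520 CPM in DRG and 804.3 to 1228 in paw. The DRG genes were Atp1b1, a sodium pump subunit that neurons also express, at 899 against 250.3 CPM, Slc12a2, a chloride transporter, at 429.3 against 359.0 (not called in males alone, at 0.09), and Eda, at 14.3 against 9.15. Aqp5, the water channel of sweat glands, ran from 65.3 through 88.3 to 121.5 CPM in paw and from 0.0767 through 0.107 to 0.243 in DRG (-9.24 ± 0.22). Foxi1, a factor of ion-transporting cells, had no DRG read and was at least 220-fold higher in paw.

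The promoters of 4 epidermal genes are shown because motif and expression could be read side by side there. The AP-1 motif TGANTCA was in 6.75% of all windows and in 5.15% of windows of tested genes. It was in 4.78% of those of genes more than 2-fold higher in DRG and in 8.63% of those more than 2-fold higher in paw. It was in 11 of 33 windows of the suprabasal list, but in 2 of 18 of the hair list, 0 of 17 of the barrier list and 0 of 11 of the basal list. The TATA motif TATAAA was in 12.4% of all windows, 7.64% of those of tested genes, 7.21% of the DRG windows and 12.6% of the paw windows. It was in 11 of 33 of the suprabasal list and 12 of 18 of the hair list, but in 0 of 17 of the barrier list and 1 of 11 of the basal list. The sequences are again the 120 bases before the start on the minus strand of GRCm38.p6, with these motifs in capitals, for Lor (chr3:92083143-92083262), Ivl (chr3:92573736-92573855), Krt10 (chr11:99389365-99389484) and Krt31 (chr11:100050552-100050671).
Lor: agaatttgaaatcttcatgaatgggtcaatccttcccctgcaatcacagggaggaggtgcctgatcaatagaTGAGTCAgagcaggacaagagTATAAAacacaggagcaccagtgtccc
Ivl: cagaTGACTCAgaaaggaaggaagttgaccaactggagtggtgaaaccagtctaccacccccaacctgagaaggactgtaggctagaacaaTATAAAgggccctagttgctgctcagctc
Krt10: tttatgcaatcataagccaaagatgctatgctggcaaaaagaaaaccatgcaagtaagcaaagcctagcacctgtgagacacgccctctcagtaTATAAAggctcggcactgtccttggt
Krt31: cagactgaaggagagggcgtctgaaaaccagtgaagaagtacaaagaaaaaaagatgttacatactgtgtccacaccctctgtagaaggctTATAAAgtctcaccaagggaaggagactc
TATAAA begins 26 to 29 bases before the start in all 4, and TGANTCA 48 bases before it in Lor and 116 in Ivl.

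Muscle genes were higher in paw and uneven in both tissues. All 28 tested genes were called higher in paw, each by more than 2-fold, with a median of -4.79 and no overlap in 23. Acta1, the actin of skeletal muscle, ran from 493.9 through 1718 to 2644 CPM in paw and from 9.83 through 59.7 to 302.7 in DRG (-4.33 ± 0.73, and -5.12 without the first male DRG library). The summed level of the list was 17710 to 97220 CPM in paw. In DRG it was 7849 CPM in the first male library and 306 to 1892 in the other 5. Without the first male DRG library the difference of Ckm, muscle creatine kinase, went from -3.99 ± 0.73 to -4.83, that of myoglobin (Mb) from -6.38 ± 0.73 to -7.61 and that of Neb, a giant filament protein, from -5.67 ± 0.79 to -6.47. What share of muscle was dissected with either tissue was not tested.

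Matrix genes were mostly higher in paw, with exceptions. Of 24 tested, 20 were called higher in paw, 3 higher in DRG and 1 was not called, with a median of -1.77. Col3a1, a fibrillar collagen, ran from 2157 through 3103 to 5364 CPM in paw and from 320.8 through 465.1 to 746.1 in DRG (-2.77 ± 0.26). Eln, the gene of elastin, ran from 152.2 through 301.6 to 461.4 against 7.32 through 13.3 to 16.4 (-4.60 ± 0.27). Sparc, a matrix protein that glia and vessels also make, was higher in DRG, at 1491 to 1960 CPM against 582 to 1307 (0.93 ± 0.14). Thy1, which marks fibroblasts and also neurons, differed by 2.60 ± 0.12, and Col14a1 by 0.46 ± 0.12.

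Tendon, cartilage and bone genes divided. Of 22 tested, 12 were called higher in paw, 7 higher in DRG and 3 were not called. Prg4, the joint lubricant, ran from 240.6 through 466.2 to 582.5 CPM in paw and from 4.14 through 12.3 to 22.2 in DRG (-5.27 ± 0.36), and Tnmd, a tendon gene, averaged 8.03 and 0.291 CPM (-4.73 ± 0.34). Higher in DRG were Ibsp, a protein of bone matrix, at 4.83 to 9.33 CPM (median 5.89) against 0 to 0.281, and the cartilage collagen Col2a1, at 4.97 to 9.19 (median 7.72) against 0 to 0.319 (median 0.258). Their differences were 5.55 ± 0.33 and 5.36 ± 0.35. In the prolactin libraries the same differences were 0.72 for Ibsp and 2.17 for Col2a1.

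The list of mast cells, lymphocytes and neutrophils was divided. Of 21 tested genes, 12 were called higher in DRG, 8 higher in paw and 1 was not called, with a median of 0.98, and the list summed to 203.8 to 338.3 CPM in DRG and to 137.6 to 204.0 in paw. Camp, a granule protein of neutrophils, ran from 4.37 through 6.86 to 10.4 CPM in DRG and from 0 through 0.0414 to 0.253 in paw (6.12 ± 0.41). Ngp and Ltf, further granule genes, differed by 6.998 ± 0.42 and 6.42 ± 0.38, and by 7.72 and 7.09 without the second male paw library. Mpo, of early neutrophils, had 334 reads in DRG and 2 in paw. By contrast Cxcr2, a receptor of mature neutrophils, was higher in paw, at 7.62 against 2.34 CPM (-1.73 ± 0.19). DRG lie inside the vertebral column, and whether bone or marrow came with them was not tested.

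Macrophage and dendritic genes were mostly on the paw side. Of 28 tested, 22 were called higher in paw, 2 higher in DRG and 4 were not called, with a median of -1.14. Csf1r, the growth factor receptor of macrophages, ran from 98.1 through 123.8 to 186.2 CPM in paw and from 28 through 36.9 to 57.4 in DRG (-1.75 ± 0.18). Cd207, the gene of langerin in Langerhans cells, had 349 reads in paw and 1 in DRG. The DRG genes were Mertk, an engulfment receptor, at 53.4 to 73.7 CPM against 13.3 to 21.4 (1.996 ± 0.12), and Cx3cr1, a chemokine receptor, at 8.07 to 15.1 against 2.72 to 5.43 (1.26 ± 0.19). All 5 tested mast cell proteases were called higher in paw, with Mcpt4 at 20.9 against 3.06 CPM (-2.77 ± 0.27).

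Vessels and fat completed the paw. Of 24 tested vessel genes, 16 were called higher in paw, 3 higher in DRG and 5 were not called, and of 17 adipocyte genes 13 were called higher in paw and 4 were not called. Lyve1, a lymphatic marker, ran from 31.4 through 45.6 to 75.4 CPM in paw and from 4.45 through 6.77 to 8.55 in DRG (-2.92 ± 0.24). The smooth muscle genes Acta2 and Myh11 differed by -3.48 ± 0.11 and -3.19 ± 0.11. The endothelial genes Cdh5 and Vwf were not called, at 55.9 and 53.0 CPM and at 78.5 and 72.4 CPM, though Vwf was without the first male paw library (0.22). In the libraries of each sex alone Cdh5 was called in opposite directions, at 0.46 in females (adjusted p = 0.0101) and -0.29 in males (adjusted p = 0.0428), while its interaction of tissue and sex did not pass (adjusted p = 0.331). Vwf was called in females alone (0.31, adjusted p = 0.014), and its interaction did not pass either (adjusted p = 0.751). Adipoq, the fat hormone adiponectin, averaged 9.74 and 15.9 CPM without a call (-0.80 ± 0.41). It was called at -1.42 without the first female DRG library, at -1.005 without the third female paw library, at -0.98 with a replicate block and at -1.56 in males alone. In the first female DRG library the adipocyte list summed to 684 CPM against 199 to 265 in the other 5.

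**Figure D3:**
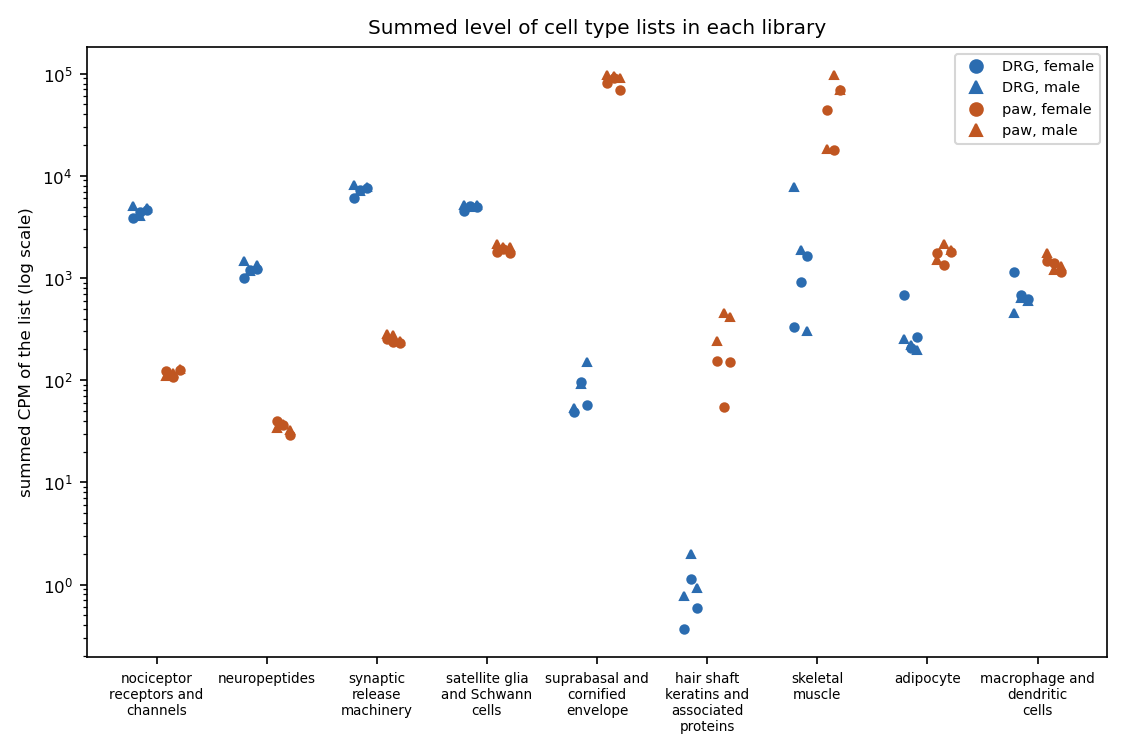
Summed CPM of 9 gene lists in each of the 12 libraries on a log axis, 1 point a library (circles female, triangles male), with DRG and paw side by side. The first male DRG library stands at 7849 CPM in the muscle list, above the other DRG libraries at 306 to 1892. The hair list spreads from 54.4 to 457 CPM over the paw libraries, the female ones below the male ones.

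Hox genes, which record position along the body axis, divided between the tissues in part by their number. DRG and paw differ in cell types as well as in position, and these cannot be told apart here. The clusters number their genes in groups, low groups being used toward the head and at the base of the limb and high groups toward the tail and the tip of the limb. Of 39 Hox genes in the files 35 were tested, and 20 were called higher in DRG, 10 higher in paw and 5 not. In groups 1 to 7, 15 of 18 tested genes were called higher in DRG and 1 higher in paw, and the summed level was 171 CPM in DRG and 69.8 in paw. In groups 10 to 13 the counts were 1 and 7 of 10, and the summed level was 41.2 and 85.0 CPM. Groups 8 and 9 lay between, with 4 and 2 of 7, at 81.2 and 75.4 CPM.

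The highest groups were at or near 0 in DRG. Hoxd13, a gene of digits, ran from 9.71 through 15.2 to 21.3 CPM in paw and had 984 reads there and 1 in DRG, a ratio of 983 (95% counting interval 176 to 38850). Hoxc13, which hair and nails also use, had 730 reads in paw and 1 in DRG. Hoxa13 had 256 reads in paw and none in DRG and was at least 85.2-fold higher in paw, and Hoxc12 was at least 53.6-fold higher. Hoxa11 and Hoxc11 differed by -3.20 ± 0.25 and -4.38 ± 0.26.

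The B cluster was higher in DRG in all 8 tested members, by 1.12 ± 0.13 (Hoxb9) to 4.15 ± 0.19 (Hoxb8). Hoxb8 ran from 8.18 through 10.2 to 10.6 CPM in DRG and from 0.253 through 0.529 to 0.820 in paw. Hoxb5 ran from 14.1 through 17.1 to 18.4 against 1.03 through 1.65 to 2.15 (3.31 ± 0.15). Hoxd1, a gene that mouse nociceptors use, ran from 10.6 through 11.9 to 12.97 CPM in DRG with no read in paw, at least 260-fold higher. Within the A cluster a pair of neighbours went opposite ways. Hoxa9 was higher in paw at 29.2 to 41.4 CPM against 11.7 to 15.3 (-1.32 ± 0.10), and Hoxa10 was higher in DRG at 16.4 to 21.7 against 8.28 to 11.6 (0.95 ± 0.09). In the C cluster Hoxc6 was higher in DRG (1.11 ± 0.12), Hoxc8 was not called (-0.07 ± 0.11), and Hoxc9 and Hoxc10 were higher in paw (-0.67 ± 0.10 and -0.81 ± 0.11).

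**Figure D4:**
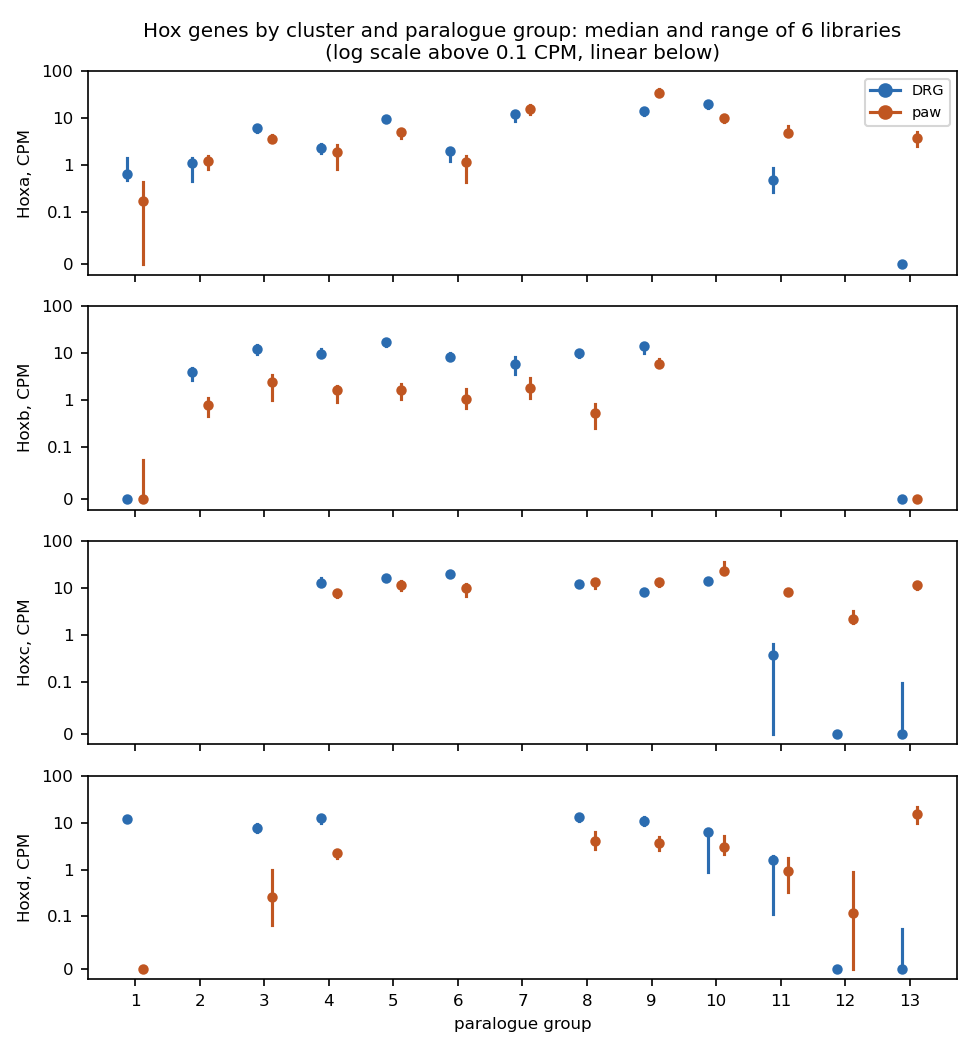
CPM of each Hox gene by cluster and group number, the point at the median and the line from the lowest to the highest of the 6 libraries of each tissue, on a scale that is logarithmic above 0.1 CPM and linear below. In the B cluster all 8 tested genes are higher in DRG, and group 13 of the A, C and D clusters is higher in paw.

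Other genes that pattern the limb were mostly on the paw side. Of 22 tested, 17 were called higher in paw, 4 higher in DRG and 1 was not called, with a median of -2.99. Tbx4, a factor of the hind limb, ran from 7.82 through 9.41 to 14.6 CPM in paw and from 0 through 0.0973 to 0.324 in DRG (-6.29 ± 0.36, and -6.93 without the second female DRG library). Its forelimb counterpart Tbx5 had 125 reads in paw and 1 in DRG. En1, which marks the ventral side of the limb, had 2032 reads in paw and 3 in DRG, and Hand2 had 566 and 1. Prrx1, a factor of limb mesenchyme, averaged 220 and 28.1 CPM (-2.97 ± 0.14). Higher in DRG were Shox2, Tbx2, Meis2 and Meis3, by 1.66 ± 0.16 (Meis2) to 2.41 ± 0.15 (Meis3), with Shox2 also in the sensory neuron list.

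In the list of trophic factor ligands and receptors, 25 of 40 tested genes were called higher in DRG, 12 higher in paw and 3 were not called. Ligands and receptors, trophic or not, were also set side by side as pairs. Of 35 ligand and receptor pairs, 7 had the ligand called higher in paw and the receptor higher in DRG, 8 had the reverse, 5 had both higher in DRG and 6 both higher in paw. In 3 a member was not called, and in 6 the ligand was too low to test. Over all genes tested 42.6% were called higher in DRG and 43% higher in paw, so every combination arises between unrelated genes too. Whether pairs depart from that background was not tested. The ligand was higher in paw and the receptor in DRG for Ntf3 with Ntrk3, Gdnf with Gfra1, Nrtn with Gfra2 and Cxcl12 with Cxcr4. The same held for Sema3a with Nrp1, Ntn1 with Dcc and Igf1 with Igf1r. Of these the Nrp1 and Igf1r differences were small, at 0.30 ± 0.07 and 0.40 ± 0.05, and in the prolactin libraries Nrp1 lay on the other side (-0.37). In males alone the call of Nrp1 was lost (0.19, adjusted p = 0.0575).

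Gdnf, a survival factor for a class of nociceptors, ran from 3.56 through 5.22 to 6.94 CPM in paw and from 0.222 through 0.337 to 0.485 in DRG (-3.82 ± 0.24). Its receptor Gfra1 ran from 163.6 through 168.1 to 171.0 CPM in DRG and from 7.26 through 10.4 to 11.8 in paw (4.11 ± 0.10). Nrtn ran from 5.27 through 7.78 to 9.62 CPM in paw against 0.0972 through 0.298 to 0.888 (-4.34 ± 0.31), while Gfra2 averaged 166 and 10.9 CPM (3.93 ± 0.11). Ntf3 ran from 1.60 through 3.22 to 4.03 CPM in paw against 0.444 through 0.566 to 0.890 (-2.30 ± 0.26). Ret, the signalling receptor that both Gfra proteins need, ran from 576.1 through 683.9 to 794.5 CPM in DRG against 10.2 through 14 to 18.6 (5.54 ± 0.14). Bdnf, which sensory neurons make themselves, was higher in DRG together with its receptor Ntrk2, by 1.18 ± 0.15 and 1.81 ± 0.11.

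Some peptides of the ganglion had receptors that were higher in paw, though most receptors of this kind were not. In the list of neuropeptide and transmitter receptors, 20 of 29 tested genes were called higher in DRG, 8 higher in paw and 1 was not called. The median of that list was 0.96, and it summed to 1074 to 1352 CPM in DRG and 314.5 to 377.7 in paw. Calca, above, faced Calcrl at 30.0 to 41.3 CPM in paw (median 35.7) and 19.2 to 24.3 in DRG (median 21.1), a difference of -0.71 ± 0.08, and Ramp1, the subunit that makes Calcrl a CGRP receptor, at 7.77 to 13.6 (median 11.8) against 1.17 to 2.77 (median 2.15), -2.46 ± 0.18. Tacr1, the receptor of substance P, ran from 4.69 through 8.30 to 9.25 CPM in paw and from 0 through 0.424 to 0.614 in DRG (-4.36 ± 0.31). Adcyap1r1, the PACAP receptor, averaged 26.1 and 9.54 CPM (-1.46 ± 0.12). The galanin pair differed, since Galr1 was also in the ganglion with 576 reads against 1.

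The neuregulin and hedgehog pairs serve glia within nerve and ganglion. Nrg1, the axonal signal for myelin, ran from 66.6 through 84.6 to 93.7 CPM in DRG and from 1.03 through 2.62 to 4.79 in paw (4.995 ± 0.21), while its receptor Erbb3 was at like level in both tissues, as above. Dhh, the Schwann cell signal for nerve sheaths, and its receptor Ptch1 were both higher in DRG, by 5.17 ± 0.13 and 1.52 ± 0.09.

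Inflammatory mediators were mostly higher in paw, in some pairs with ligand and receptor together. Of 34 tested itch and pain mediators and receptors, 23 were called higher in paw, 9 higher in DRG and 2 were not called. Il1b and Il1r1 differed by -4.04 ± 0.39 and -2.003 ± 0.08, Tnf and Tnfrsf1a by -2.04 ± 0.38 and -2.26 ± 0.07, and Ccl2 and Ccr2 by -3.33 ± 0.31 and -1.42 ± 0.20. Other pairs split. Il33 was called higher in DRG (0.35 ± 0.155, adjusted p = 0.0483) and its receptor Il1rl1 higher in paw (-1.68 ± 0.15). The call of Il33 was lost, at 0.25 to 0.37, without the first female DRG library, the first female paw library, the third female paw library, the first or second male DRG library or any 1 of the male paw libraries. That call was also lost with upper quartile scaling (0.30), a filter at 1 CPM in 6 libraries (0.35), a replicate block (0.32), no sex term (0.34) and in females alone (0.21). Osm was higher in paw (-3.13 ± 0.26) and Osmr not called, and Cxcl12 and Cxcr4 lay on opposite sides, as above. Ptgs2, the inducible cyclooxygenase, averaged 21.5 CPM in paw and 0.519 in DRG (-5.36 ± 0.34). The DRG members held Htr7, a serotonin receptor, at 13.6 against 1.72 CPM (2.97 ± 0.10), and Lpar3, a lipid receptor, at 34.9 against 5.40 (2.69 ± 0.13). The paw of these mice had been injected, and an uninjected paw is not analysed here.

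**Figure D5:**
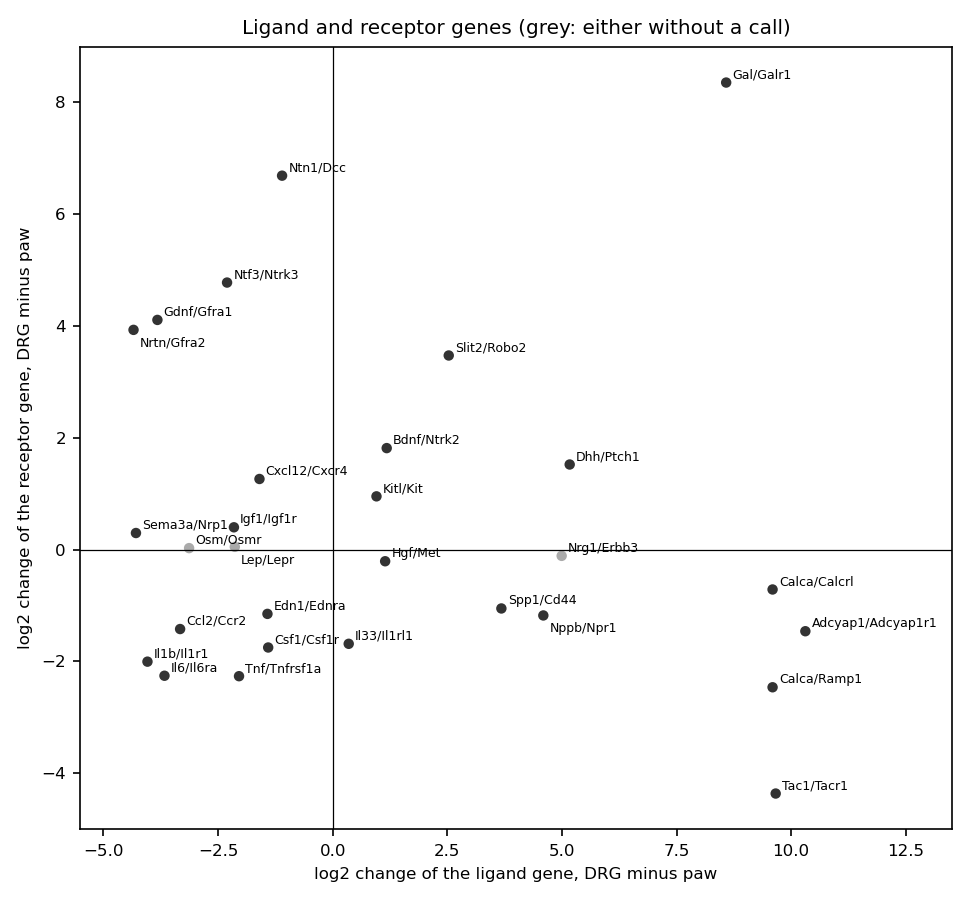
Log2 difference of DRG over paw of the ligand gene (horizontal axis) and of the receptor gene (vertical axis), 1 point for each of the 29 pairs with both members tested, grey where either was not called. The pairs of Gdnf, Nrtn and Ntf3 lie at the upper left (ligand higher in paw, receptor higher in DRG) and those of Calca, Tac1 and Adcyap1 at the lower right. Differences fitted to genes with few or no reads in a tissue depend on the small prior count of the fit.

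The prolactin receptor, the target of the hormone that the study injected, was higher in paw. Prlr ran from 68.6 through 83.0 to 100.6 CPM in paw and from 10.8 through 13.1 to 15.9 in DRG, without overlap. The difference was -2.66 ± 0.11 (adjusted p = 1.85e-11), -2.91 in females, -2.41 in males and -2.12 in the prolactin libraries. Prl itself had no read in any of the 12 libraries. Counts per gene do not separate the long and short forms of the receptor.

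The wider list of prolactin and JAK-STAT5 signalling, which includes Prlr itself, was mostly on the paw side. Of 19 tested genes, 13 were called higher in paw, 4 higher in DRG and 2 were not called, with a median of -0.62. The summed level of the list overlapped between the tissues, at 1446 to 1734 CPM in DRG and 1473 to 1655 in paw. Stat5a, the main prolactin transducer, ran from 33.7 through 42.0 to 52.0 CPM in paw and from 6.90 through 8.83 to 12.6 in DRG (-2.20 ± 0.12), and Stat5b differed by -0.71 ± 0.09. The feedback inhibitors Socs3 and Cish differed by -2.70 ± 0.18 and -2.09 ± 0.17. Jak1, Stat3 and Ptpn11 were among the genes called higher in DRG.

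Receptors for steroid and related hormones divided evenly, 9 called in each direction and 1 not called of 19 tested, near the backgrounds of 42.6% and 43%. Esr1, the oestrogen receptor, averaged 16.7 and 10.9 CPM (0.61 ± 0.08), with 0.02 in the prolactin libraries, and Pgr, the progesterone receptor, averaged 13.4 and 4.09 CPM (1.71 ± 0.17). Vdr, the vitamin D receptor of keratinocytes, ran from 71.4 through 79.4 to 85.6 CPM in paw and from 1.11 through 1.28 to 2.38 in DRG (-5.72 ± 0.13). The thyroid hormone receptors divided, Thra higher in DRG (1.14 ± 0.08) and Thrb higher in paw (-2.23 ± 0.08).

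Regulators of splicing and other RNA-binding genes were called in both directions. Of 35 tested genes, 22 were called higher in DRG, 11 higher in paw and 2 were not called, against backgrounds of 42.6% and 43%. The neuronal Elavl4 ran from 293.3 through 362.3 to 399.3 CPM in DRG and from 0.338 through 0.865 to 1.12 in paw (8.86 ± 0.15), and the neuronal Rbfox3 differed by 8.50 ± 0.15. Esrp1, the regulator of epithelial splice forms, ran from 501.1 through 546.4 to 647.6 CPM in paw and from 0.455 through 0.550 to 1.04 in DRG (-9.77 ± 0.14). Some paralogues divided between the tissues. Ptbp1 was higher in paw (-2.46 ± 0.08) and Ptbp2, which replaces it in neurons, higher in DRG (1.11 ± 0.06), and Mbnl3 was higher in paw (-5.32 ± 0.12) and Mbnl2 higher in DRG (0.84 ± 0.07).

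Rest, which silences neuronal genes in other tissues, ran from 53.1 through 56.9 to 63.6 CPM in paw and from 19.3 through 22.2 to 24.9 in DRG (-1.39 ± 0.06). The neuronal factors Myt1l and Scrt1 and the epithelial factors Tcfap2b and Gata3 were further apart, at 9.49 ± 0.26, 7.76 ± 0.20, -9.68 ± 0.17 and -7.51 ± 0.21, with Myt1l at 10.29 without the first female paw library.

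Metabolic and cytoskeletal genes with tissue-typed copies divided about evenly. Of 49 tested, 24 were called higher in DRG, 23 higher in paw and 2 were not called, near the backgrounds of 42.6% and 43%. Some families held a member on each side. The lactate dehydrogenase Ldhb was higher in DRG (3.53 ± 0.13) and Ldha higher in paw (-1.17 ± 0.07). Hexokinase Hk1 differed by 0.55 ± 0.10 and Hk2 by -4.15 ± 0.22. Eef1a2, the elongation factor of neurons and muscle, was higher in DRG (2.77 ± 0.33) and the general Eef1a1 higher in paw (-1.78 ± 0.06).

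Adhesion genes were divided. Of 35 tested, 22 were called higher in DRG, 12 higher in paw and 1 was not called, with a median of 3.32. Cdh2, the cadherin of nerve, ran from 74.4 through 86.4 to 92.8 CPM in DRG and from 3.19 through 3.57 to 5.11 in paw (4.45 ± 0.09). Cdh1, the cadherin of epithelia, was high in both, at 263.0 to 280.4 CPM in DRG and 385.2 to 470.3 in paw (-0.66 ± 0.06). Gjb2, a connexin of keratinocytes, differed by -5.66 ± 0.22 and Gjc3, of glia, by 4.92 ± 0.13. Cdh8 had no read in paw and was at least 370-fold higher in DRG.

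Cell cycle genes were higher in paw almost throughout. Of 24 cell cycle genes, 23 were called higher in paw, with a median of -2.27. Mki67, a protein of cycling cells, ran from 251.4 through 311.7 to 421.6 CPM in paw and from 15.04 through 39.7 to 52.2 in DRG (-3.16 ± 0.24). The single DRG gene was Cdkn2a, an inhibitor of the cycle, with 63 reads in DRG and 2 in paw.

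Clock genes and immediate early genes, both of which change within hours, were higher in paw. All 17 clock genes were called higher in paw, activators and repressors alike, with a median of -1.28. Arntl, an activator, ran from 60.1 through 71.5 to 82.1 CPM in paw and from 10.4 through 14.4 to 16.6 in DRG (-2.32 ± 0.09). Its repressor Nr1d1 ran from 231.6 through 261.3 to 279.8 CPM against 36.5 through 39.8 to 50.2 (-2.64 ± 0.07). Per1 ran from 273.2 through 315.9 to 362.0 CPM against 73.3 through 94.4 to 117.2 (-1.74 ± 0.09). The labels do not give the hour of collection.

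Of 18 immediate early genes, 16 were called higher in paw, 1 higher in DRG and 1 was not called, with a median of -3.45. Fos ran from 144.3 through 203.3 to 278.5 CPM in paw and from 7.35 through 7.63 to 9.83 in DRG (-4.70 ± 0.17), and Fosb and Egr1 differed by -5.84 ± 0.16 and -3.39 ± 0.15. The DRG gene was Egr2, the myelin factor, at 61.3 to 111.2 CPM against 19.5 to 32.4 (1.97 ± 0.15). Dissection of tissue can induce these genes, and whether it did was not tested.

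Ribosomal protein genes were higher in paw in 39 of 40 tested members, with a median of -1.68. Rplp0 ran from 494.7 through 525.6 to 586.3 CPM in paw and from 76.6 through 81.4 to 87.8 in DRG (-2.72 ± 0.06). The exception was Rpl15 (0.65 ± 0.12). Many of these genes have processed pseudogenes. Multimapped reads were not counted for any gene, so genes with near copies are under-counted. How this bears on the tissue difference was not tested. Gapdh and Ppia, which also have many such copies, were listed at only 1.32 and 2.23 CPM and at 1.07 and 1.87 CPM. The respiratory chain differed little, with 18 of 32 genes called higher in DRG, 3 higher in paw, 11 not called and a median of 0.24. Of 18 common reference genes, 4 were called higher in DRG and 9 higher in paw, Actb at -0.68 ± 0.07 and Hprt at 0.39 ± 0.07.

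Imprinted genes, which are expressed from 1 parental copy, were higher in DRG. Of 20 tested, 17 were called higher in DRG, 2 higher in paw and 1 was not called, with a median of 1.92. Meg3, a non-coding RNA, ran from 1661 through 2050 to 2273 CPM in DRG and from 23.7 through 30.7 to 47.4 in paw (5.96 ± 0.16), and its neighbours Rian and Mirg differed by 5.21 ± 0.13 and 5.13 ± 0.19. Peg3 ran from 272.9 through 342.6 to 367.9 CPM against 23.1 through 33.6 to 51.2 (3.25 ± 0.17). Nap1l5 differed by 8.29 ± 0.18. The paw genes were Asb4 and Kcnq1, at -2.11 ± 0.52 and -2.32 ± 0.21, and H19 was not called (-0.36 ± 0.19), though it was without the first female paw library (-0.46). In males alone H19 was called higher in paw (-0.79, adjusted p = 0.0149), in females alone it differed by 0.03, and the interaction did not pass (adjusted p = 0.59). Among other non-coding RNAs Neat1 was higher in paw (-1.64 ± 0.07) and Malat1 higher in DRG (0.45 ± 0.08, and 0.26 without a call in males alone).

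Few genes passed the test of whether the tissue difference itself differed between females and males. The interaction of tissue and sex passed in 2 of 15598 genes (0.0128%) by edgeR, with 1226 genes at an unadjusted p under 0.05 and 48 calls by DESeq2. Hal, histidase of the skin, was at 176.8, 205.8 and 201.3 CPM in the 3 female paw libraries and at 92.1, 65.9 and 75.2 in the 3 male ones, with 6.43 to 8.44 in all DRG libraries. Its log2 difference was -4.90 in females and -3.39 in males (adjusted p of the interaction = 0.0321). Kcnk1, a potassium channel, was at 5.55, 6.76 and 5.72 CPM in female paw and at 15.4, 13.3 and 15.6 in male paw, with 76.5 to 92.9 in DRG. Its difference was 3.81 in females and 2.50 in males (adjusted p = 0.0294). In both genes the sexes were apart in paw and overlapped in DRG. With single libraries left out the count of genes ran from 0 to 7. It was 0 without the second female DRG library, the third female DRG library, the third female paw library, the first male DRG library or the third male DRG library. It was 1 without the second female paw library or the first or second male paw library, and 7 without the third male paw library. Across those fits the Hal interaction stayed between 1.37 and 1.65 and the Kcnk1 interaction between -1.40 and -1.25, mostly with adjusted p above the threshold.

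Fras1, Nrg1, Ptprd and Col1a1 came next and missed the threshold, with adjusted p from 0.0585 to 0.127. Col1a1, the main collagen of skin, differed by -1.16 in females and -2.91 in males, with female paw at 1263 to 1796 CPM and male paw at 2572 to 4183. A p that misses the threshold does not show that the sexes are alike.

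The prolactin libraries gave the same contrast in other samples. There 12842 of 15638 tested genes (82.1%) were called, 6059 higher in DRG and 6783 higher in paw. Of 13190 called genes that were tested in both, 5770 were higher in DRG and 6011 higher in paw in both sets, and 126 were called in opposite directions. Among the 6756 genes more than 2-fold apart here and tested there, 6716 had the same sign and 6605 were called in the same direction. Of the lists, all 25 synaptic genes and all 25 called nociceptor genes were called in the same direction there, as were 35 of 36 suprabasal genes. The counts were 13 of 23 for hair genes and 21 of 28 for muscle genes.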

How the data were processed

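Total RNA of DRG and hind paw (about 500 ng) was depleted of ribosomal RNA and made into strand-marked libraries read from 1 end over 50 nt, per the labels' protocols. Raw read counts per gene symbol were deposited by the authors, 1 file a library, made with TopHat2 and HTSeq on mm9, per the submitters' processing notes; not given in the sources used here are versions, annotation and the strand and overlap settings of HTSeq. Each file held 22609 genes and 5 summary lines, which stayed out of library sizes and tests. Multimapped reads appeared only in the summary lines, so genes with near copies are under-counted, and overlapping or antisense genes may share reads.

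The 12 vehicle libraries were fitted in edgeR 4.0.16 (R 4.3.3, limma 3.58.1) with TMM scaling, the default filter on low counts, sex as a block and tissue, by the quasi-likelihood test with Benjamini-Hochberg adjustment over all genes tested. Further tests asked for more than 2-fold and for the interaction of tissue and sex, and the same contrast was fitted in 12 prolactin libraries. Counts were also simulated for 15358 genes with 200 changed. There the test recovered 77.3% of genes changed 1.5-fold, 92.5% at 2-fold and 100% at 4-fold, and 4.28% of 187 calls were false. In the data 85.6% of genes were called, and how the test performs at such a share was not tested. The median SE was 0.110 on the log2 scale, and 3 counts over a tissue correspond to 0.0459 CPM in DRG and 0.0458 in paw.

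The genes, lists, pairs and motifs were chosen with earlier results of these data known. Named by rule were Prlr, the 12 largest differences in each direction (mean log2 CPM of at least 5, no overlap, no predicted genes), up to 5 called genes in each direction of each list (mean log2 CPM of at least 2), list members without a call or against their list, all Hox genes, all pair members, and the 6 genes with the smallest interaction p. A further 52 of the 264 genes in the text, Xist aside, were picked after their values were seen. Some genes that this rule names, and 1 ligand and receptor pair, are not reported here, though counts over the gene lists include those genes. Alternatives were other scalings and filters, DESeq2 1.42.0, a replicate block, no sex term, a muscle covariate, each sex alone, and each library left out. Promoter sequences are from RefSeq (GRCm38.p6), matched by symbol, and no coordinate was carried between builds; 12128 tested genes had a window.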

Additional observations from a re-analysis of the deposited data

Results flagged for a closer look

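In DRG the first female library lay apart from the other 5 in several summed levels. Its adipocyte genes summed to 684 CPM against 199 to 265, its macrophage and dendritic genes to 1146 CPM against 455 to 677, its Merkel cell and melanocyte genes to 301 CPM against 343 to 364, its B cluster Hox genes to 71.3 CPM against 78.9 to 82.9, and its imprinted genes to 3875 CPM against 4455 to 4733. The first male DRG library summed to 7849 CPM of skeletal muscle genes against 306 to 1892, and in the second male DRG library the 10 most read genes took 9.22% of gene reads against 8.35% to 8.49%. In paw the second male library stood apart with 13.6% of reads in genes against 23.8% to 25.4%, 55.5% multimapped reads against 42.1% to 43.2%, long non-coding RNAs at 34040 CPM against 27750 to 29450, and imprinted genes at 997 CPM against 774 to 844. These 11 of 108 groups examined had 1 library beyond Dixon's 95% critical value for 6 samples, which chance passes in about 1 of 20.

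The tissue difference of Hal was larger in size in females than in males by an interaction of 1.51 on the log2 scale, and that of Kcnk1 was larger in females, with an interaction of -1.30.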

How the results depend on the processing

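The counts of genes called between the tissues stayed within 1.5 times the reported ones under all 11 alternatives and with each of the 12 libraries left out, between 11885 (male libraries alone) and 14476 (no filter on low counts), and from 13279 to 13458 with single libraries left out. Other scalings shifted the median of all genes by -0.0508 to 0.03. The labels do not say whether same-numbered DRG and paw libraries came from the same animal. After removal of group means, same-numbered libraries correlated at 0.033, -0.0448 and 0.135 in females and at -0.278, -0.00329 and -0.124 in males. Differently numbered libraries of a sex correlated at -0.199 to 0.268. With 3 libraries in a group such correlations cannot decide whether the numbers pair the tissues. With a replicate block 13208 genes were called, 13154 of them among the reported 13357 in the same direction. The interaction count of 2 was 4 with upper quartile scaling, 0 with scaling by total gene reads, 4 without the filter, 1 with the replicate block, 10 with the muscle covariate, 48 by DESeq2, and 0 to 7 with single libraries left out; the cause was not tested. Of 246 called genes in the text, 238 kept call and direction throughout, and none reversed. The others, which lost the call under some alternatives, were Maf, Mafa, Mtap2, Nrp1, Malat1, Slc12a2, Il33 and Ppia. For Ppia the change of -0.74 was -0.733 with the replicate block, -0.638 in males alone, and -0.676 to -0.62 without the first or the third female DRG library, the first female paw library, the second male DRG library or the third male paw library. Some genes without a call changed sign: Osmr was -0.0239 with upper quartile scaling, -0.0012 in females alone and -0.00772 to 0.0591 without single libraries, Itga6 0.00975 with scaling by total gene reads and -0.0794 to 0.0155 without single libraries, Cacnb1 -0.00187 in males alone and -0.077 to 0.242 without single libraries, H19 0.0315 in females alone, and Cdh5 and Vwf -0.289 and -0.0945 in males alone, where Cdh5 was called, against 0.458 and 0.31 in females alone, where both were called. Low counts limit the genes near 0 in a tissue, whose ratios rest on few reads.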
